A study of Mus musculus with 11 samples.

Results

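Heat shock and unfolded protein response genes were examined in the hypothalamus of male C57BL/6N mouse offspring at postnatal day (P) 21. Members were taken by gene symbol, and they were the HSP70, HSP110, HSP90, small heat shock protein and chaperonin genes (Hspa, Hsph, Hsp90, Hspb, Hspd, Hspe), the J protein genes (Dnaja, Dnajb, Dnajc), Bag1 to Bag6, the protein disulfide isomerase genes named Pdia, and Atf4, Atf6, Ddit3, Xbp1, Ern1, Eif2ak3, Calr, Canx and Herpud1. Of 92 such genes with a probe named through its RefSeq accession, 89 gave a signal well above background in 5 or more of the 11 samples and were tested, among 17189 genes in all. Dnajb7, Hspbap1 and Dnajb11 did not pass this filter, and Dnajc5g and Hspb7 passed it only through the CO arrays. The dams had been fed either standard chow (CO, samples titled SD, n = 5) or a high-fat diet (HFD, n = 6) from weaning until mating and through gestation and lactation, and no transgene or further treatment of the male offspring is named. Hypothalamic tissue was dissected by anatomical landmarks, so each sample held a mixture of cell types. By the methods at most 2 offspring of a dam were studied, but which samples share a dam is not given in the labels, so litter could not be modelled and p-values measure only the spread between these samples. In the titles CO1, CO2 and CO3 share a number prefix, and CO4 and CO5 share another. The meaning of these prefixes is not given.

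Heat shock proteins are chaperones that hold, fold or refold other proteins. HSP70 proteins bind unfolded stretches, J proteins deliver these to HSP70 and start its ATP cycle, and HSP110 and BAG proteins release the client again. HSP90 completes the folding of kinases and steroid receptors, and small heat shock proteins hold unfolded proteins without ATP. Heat shock factor 1 (HSF1) raises a set of inducible members under heat or proteotoxic stress. In the endoplasmic reticulum (ER), the unfolded protein response (UPR) runs through the sensors IRE1 (Ern1), PERK (Eif2ak3) and ATF6, with the transcription factors XBP1, ATF4 and CHOP (Ddit3) downstream, and raises ER chaperones and the machinery of ER-associated degradation. In the hypothalamus, ER stress has been studied in connection with leptin resistance in obesity. Arrays measure the amount of each transcript, and neither the splicing of Xbp1 mRNA nor the cleavage of ATF6 nor phosphorylation is seen by them.

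Levels are log2 of the processed spot intensity relative to the 75th percentile of the same array, taken from the brightest probe of each gene, so that a level of 0 equals this percentile. Since probes differ in brightness, levels are compared only between samples and not between genes. Differences are HFD minus CO by limma, with p-values adjusted over all 17189 genes, and a gene was called at an adjusted p below 0.05. CO arrays had 82.5 to 85.7% of their mouse spots well above background and HFD arrays had 71.8 to 77.4%, and no probe of a member was saturated. The groups were scanned in separate sessions 337 days apart, on different slides and with different versions of the extraction protocol, so that maternal diet and scan session cannot be told apart in any value below. Spike-in probes bind RNA that was added in amounts not given. Relative to the 75th percentile of the same array, signals of these probes were 0.67 (log2) higher in the HFD group. Scaling to them lowers the difference of every gene by this amount (median of all genes -0.84 in place of -0.17), and counts under this scaling are given beside those of the families and lists.

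Of the 89 members, 27 were higher in HFD offspring, 38 were lower and 24 were not called. Over all genes tested, 22.2% were higher and 44.1% were lower, and the corresponding shares of the members were 30.3% and 42.7%. The median log2 difference of the members was -0.07, beside -0.17 over all genes. With spike-in scaling, 3 members were higher (Hsp90aa1, Hsp90b1 and Dnajc2) and 75 were lower, and 14 members called higher turned to lower. Under that scaling 5.57% of all genes were higher and 83.5% were lower. Counts of families and lists below are to be read beside the shares of all genes under the same scaling. In 24 members all HFD samples lay above all CO samples and in 27 all lay below. Over all 17189 genes this held for 2764 above and 5239 below, or 46.6% without overlap in either direction. Differences past the threshold and of at least 2-fold were found for 4 members upward and 4 downward, against 15.6% of all genes, but Dnajc5g and Hspb7 were among those downward. Among the 86 members well above background on all arrays, 27 were higher and 36 were lower when only such genes were fitted, beside 24.4% and 41.5% of those genes. With another background correction, normexp on the median spot signal, 18 members were higher and 22 were lower, beside 15.6% and 22.5% of all genes, and 38 of the 65 calls were kept. The Rank Product test that the methods name, at a percentage of false positives below 0.001, called 1 member (Hsp90aa1, higher), beside 2.69% of all genes higher and 2.01% lower. Calls in both directions were found in 8 of the 11 families plotted.

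**Figure D1:**
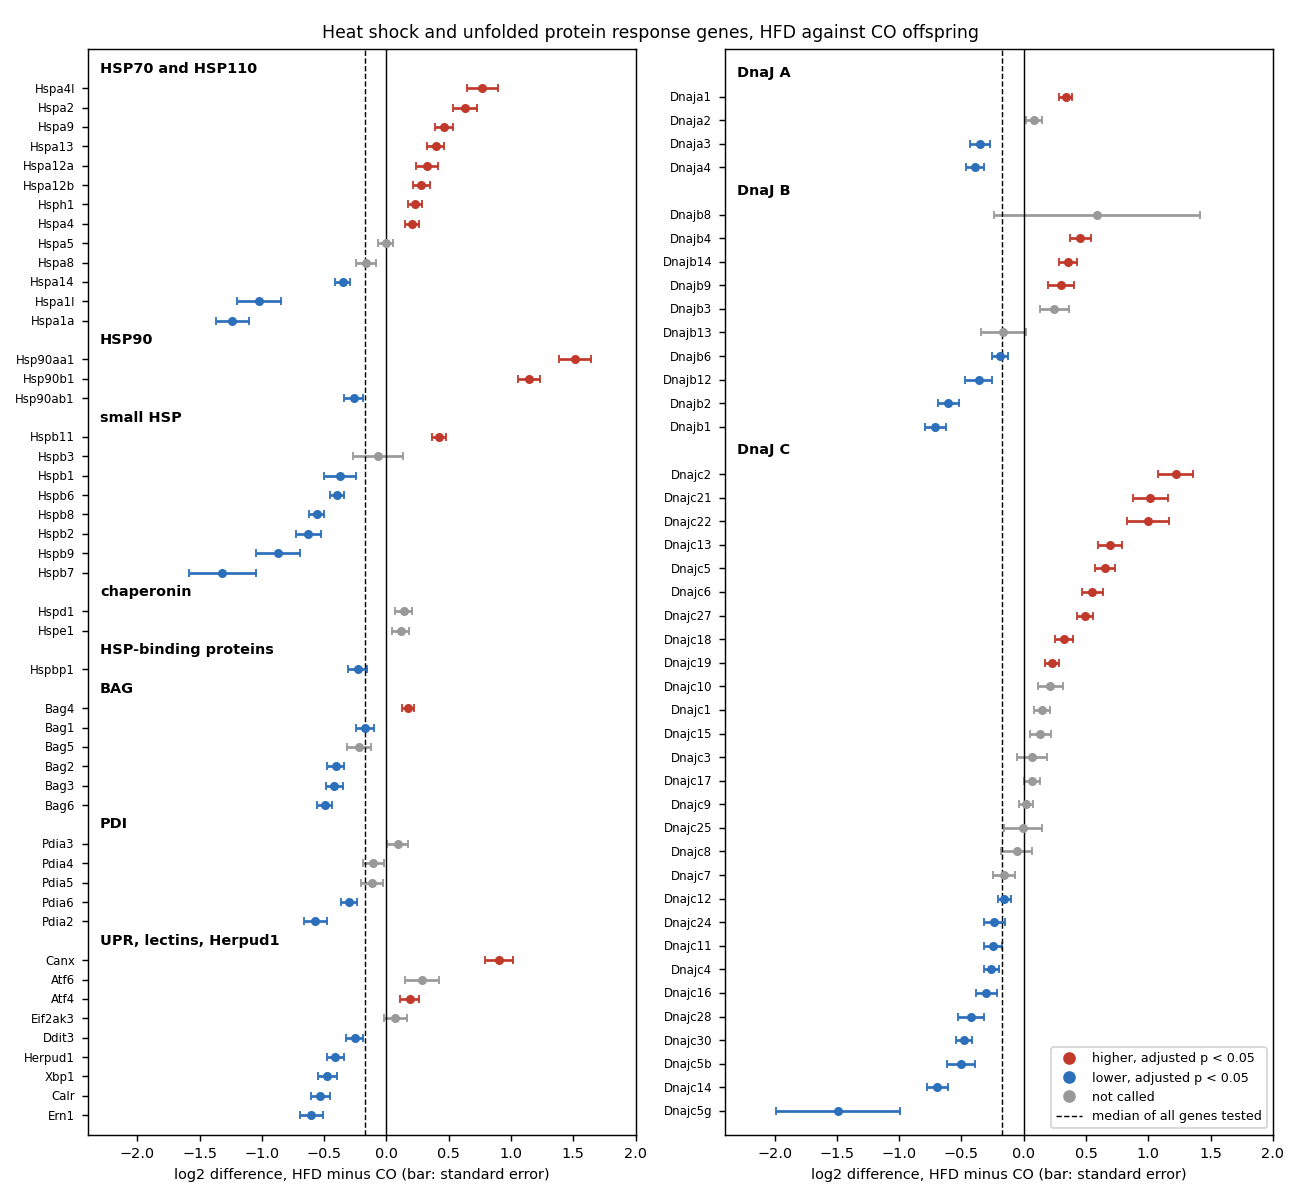
Log2 difference (HFD minus CO) of each of the 89 members by family, with its standard error as a bar. Red points were called higher and blue points lower at an adjusted p below 0.05, grey points were not called, and the dashed line marks the median of all genes tested (-0.17). Differences run from -1.49 (Dnajc5g) to 1.51 (Hsp90aa1), with both directions inside most families. With spike-in scaling all points move down by 0.67.

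Among the inducible heat shock genes, the classical targets of HSF1, the directions were mixed. Of 10 measured genes of this list (Hspa1b was not analysed here), 3 were higher (Hsp90aa1, Dnaja1 and Hsph1), 4 were lower (Hspa1a, Dnajb1, Hspb1 and Bag3) and 3 were not called, with 1 higher and 9 lower under spike-in scaling. Their median difference was -0.03, and of all genes 22.2% were higher and 44.1% were lower. Hspa1a, the stress-inducible HSP70, was at -1.02, -0.29, -0.74, -0.57 and -0.43 in the CO samples 1 to 5 and between -2.09 and -1.69 (median -1.75) in the HFD samples. All HFD samples lay below all CO samples, and the gene was 2.36-fold lower (log2 -1.24 ± 0.13 SE, adjusted p = 1.08e-05). Hspa1a and Hspa1b are near-identical, and the probe may bind transcripts of both. Dnajb1, the J protein that works with inducible HSP70, was at 4.15, 4.46, 4.38, 4.09 and 4.13 in the CO samples 1 to 5 and between 3.45 and 3.74 (median 3.49) in the HFD samples. It was 1.64-fold lower (log2 -0.71 ± 0.08 SE, adjusted p = 2.31e-05), and its groups did not overlap. Bag3, which links HSP70 to small heat shock proteins and autophagy, was 1.34-fold lower (log2 -0.42 ± 0.07 SE, adjusted p = 2.48e-04), without overlap.

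Hspb1 (HSP27) was at 1.88, 1.94, 1.92, 2.20 and 2.33 in the CO samples 1 to 5 and between 1.42 and 1.96 (median 1.67) in the HFD samples. The lowest CO sample lay below the highest HFD sample, and the gene was 1.29-fold lower (log2 -0.37 ± 0.13 SE, adjusted p = 0.0232). This call was lost by limma without CO4, CO5, HFD4 or HFD5 (adjusted p from 0.05003 to 0.0608) and with scaling to the median (-0.31, adjusted p = 0.0527). In the other direction, Hsph1 (HSP110), an exchange factor of HSP70, was at 4.15, 3.99, 4.15, 4.16 and 3.96 in the CO samples 1 to 5 and between 4.23 and 4.39 (median 4.29) in the HFD samples. This small rise, without overlap, made it 1.17-fold higher (log2 0.23 ± 0.06 SE, adjusted p = 0.00477), and under spike-in scaling it turned to lower (log2 difference -0.44). Dnaja1, a cytosolic J protein, was 1.26-fold higher (log2 0.34 ± 0.05 SE, adjusted p = 1.77e-04), without overlap, and likewise turned under that scaling (-0.33). Its second probe gave -0.12, and averaged over both probes Dnaja1 was not called (0.11, adjusted p = 0.0797). Hspa8, the constitutive HSP70 of the cytosol, was at 6.59, 6.49, 6.42, 6.40 and 6.73 in the CO samples 1 to 5 and between 6.14 and 6.51 (median 6.38) in the HFD samples. The groups overlapped, and the log2 difference of -0.17 ± 0.08 (SE, adjusted p = 0.0848) did not pass the threshold, although Hspa8 was called lower with quantile normalization (-0.19, adjusted p = 0.00950) and averaged over its probes (-0.52, adjusted p = 2.54e-05). The mitochondrial chaperonin genes Hspd1 (HSP60) and Hspe1 (HSP10) were not called either: Hspd1 had a log2 difference of 0.14 ± 0.07 (SE, adjusted p = 0.0972) and Hspe1 a log2 difference of 0.11 ± 0.07 (SE, adjusted p = 0.158). Hspd1 was called higher with scaling to the median (0.20, adjusted p = 0.0385) and by limma without CO4 (adjusted p = 0.0342), and Hspe1 was called higher with quantile normalization (0.16, adjusted p = 0.0396).

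RefSeq promoter sequences (250 bases before to 50 after the start, build GRCm38.p6) were matched for 73 of the 89 members and searched on both strands for the heat shock element, the site of HSF1, written as GAA, TTC and GAA with 2 bases between each. Matches were found in 4 members (Dnajb6, Hspd1, Hspe1 and Hsph1), or 5.48% of the 73, and in 0.662% of all genes searched (0.603% of all 32851 promoters). Hspd1 and Hspe1 lie head to head on chromosome 1 and share their promoter, with overlapping matches on both strands. The stretches before the start are shown for the members whose match could be read there, 5′ to 3′ along the gene. Fixed letters of the motif are in capitals, to show the form of the match.
Hspe1, heat shock element, chr1:55088044-55088091, plus strand: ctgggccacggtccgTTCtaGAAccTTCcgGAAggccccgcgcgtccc
Dnajb6, heat shock element, chr5:29735837-29735879, plus strand: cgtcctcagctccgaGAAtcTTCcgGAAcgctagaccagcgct
In Hsph1 the match lay wholly past the start. Hsph1, Hspd1 and Hspe1 are 3 of the 8 inducible genes searched, Dnajb6 is not on that list, and no promoter was matched for Hsp90aa1 and Hspa8. Of the 4 genes with a match, Hsph1 was higher, Dnajb6 was lower (-0.19, adjusted p = 0.017) and Hspd1 and Hspe1 were not called. A match to these letters is a description of the sequence, and other spacings of the element were not searched.

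Hsp90aa1 and Hsp90b1 were higher by over 2-fold and were still called higher under spike-in scaling, while the third HSP90 gene was lower. Hsp90aa1, the inducible cytosolic HSP90, was at 4.17, 3.73, 4.40, 4.43 and 3.81 in the CO samples 1 to 5 and between 5.49 and 5.75 (median 5.62) in the HFD samples. All HFD samples lay above all CO samples by more than the whole range of either group, and Hsp90aa1 was 2.85-fold higher (log2 1.51 ± 0.13 SE, adjusted p = 2.83e-06). Hsp90b1 (GRP94), the HSP90 of the ER, was at 3.32, 3.13, 3.52, 3.59 and 3.12 in the CO samples 1 to 5 and between 4.44 and 4.52 (median 4.47) in the HFD samples. It was 2.21-fold higher (log2 1.14 ± 0.09 SE, adjusted p = 1.32e-06), and the HFD samples (SD 0.03, n = 6) lay closer together than the CO samples (SD 0.22, n = 5). Hsp90ab1, the constitutive cytosolic paralog, was at 6.27, 6.61, 6.29, 6.35 and 6.54 in the CO samples 1 to 5 and between 5.97 and 6.25 (median 6.17) in the HFD samples. It was 1.20-fold lower (log2 -0.26 ± 0.08 SE, adjusted p = 0.011), so the cytosolic paralogs were called in opposite directions, under spike-in scaling too, though the call of Hsp90ab1 was lost with the normexp correction (-0.09, adjusted p = 0.462). In CO2 and CO5 both Hsp90aa1 and Hsp90b1 were the lowest of the 11 samples, and these samples were also the highest in Hsp90ab1.

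**Figure D2:**
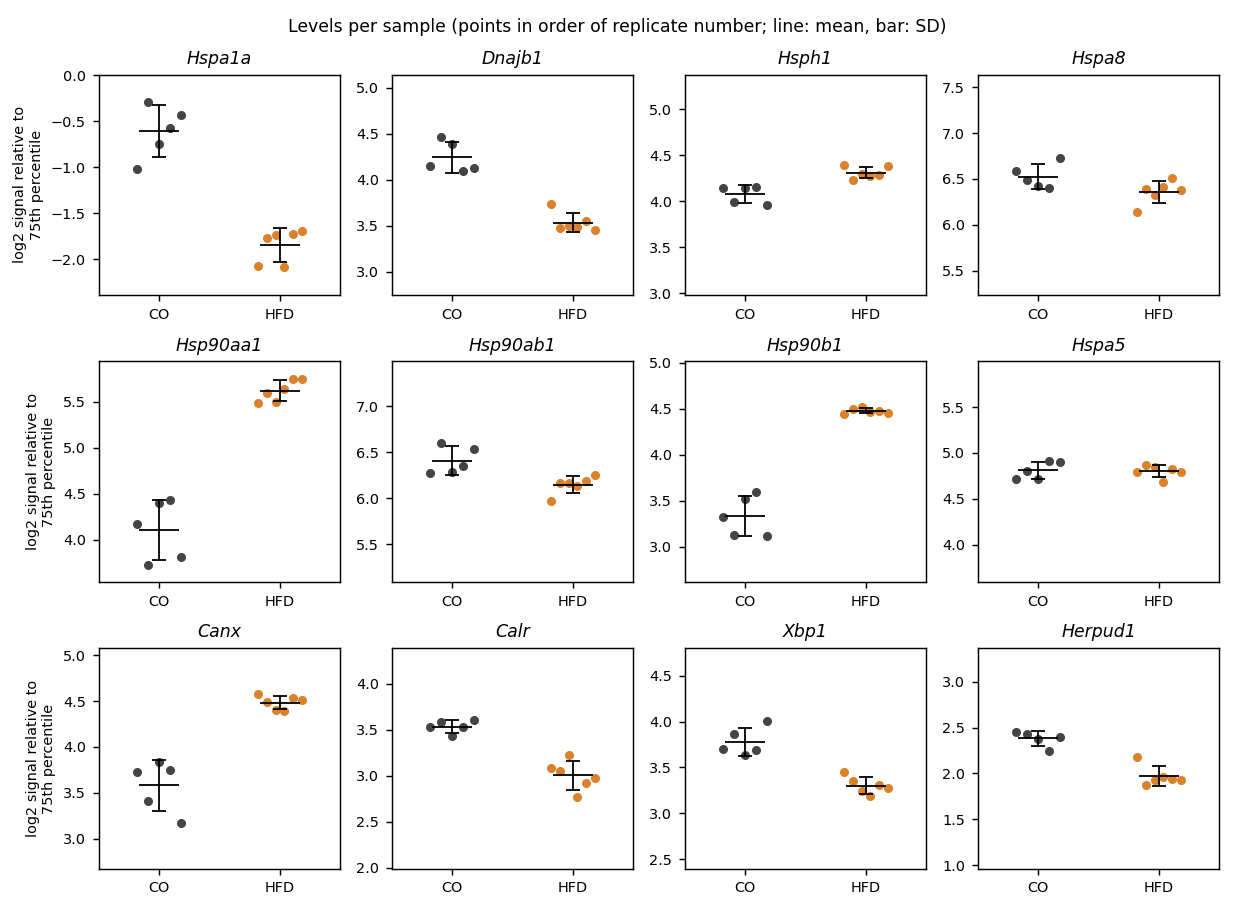
Levels (log2 signal relative to the 75th percentile of the array) of 12 members in each of the 5 CO and 6 HFD samples, with the group mean and SD. All panels span the same range. The groups are apart in Hspa1a, Dnajb1, Hsph1, the HSP90 genes, Canx, Calr, Xbp1 and Herpud1 and overlap in Hspa8 and Hspa5; Hsph1 turned to lower under spike-in scaling.

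Of the 13 HSP70 and HSP110 genes, 8 were higher and 3 were lower (Hspa1a, Hspa1l and Hspa14), with a median difference of 0.23. Over all genes 22.2% were higher and 44.1% were lower. Under spike-in scaling none of the 13 was higher and 11 were lower, beside 5.57% and 83.5% of all genes. The largest increase was that of Hspa4l, an exchange factor of the HSP110 group, which was at 1.52, 1.31, 1.78, 1.93 and 1.28 in the CO samples 1 to 5 and between 2.15 and 2.53 (median 2.31) in the HFD samples. Hspa4l was 1.70-fold higher (log2 0.77 ± 0.12 SE, adjusted p = 2.22e-04), without overlap, and was not called under spike-in scaling (log2 difference 0.10). Hspa2, at 0.48, 0.64, 0.45, 0.45 and 0.71 in the CO samples 1 to 5 and between 0.84 and 1.39 (median 1.21) in the HFD samples, was 1.55-fold higher (log2 0.63 ± 0.10 SE, adjusted p = 1.67e-04), also without overlap, and was not called under that scaling either (-0.04). Hspa9 (mortalin), the HSP70 of mitochondria, was 1.38-fold higher (log2 0.46 ± 0.07 SE, adjusted p = 1.97e-04) and turned to lower under that scaling (-0.21). The remaining increases of Hspa13, Hspa12a, Hspa12b, Hsph1 and Hspa4 were between 0.20 and 0.39. The second probe of Hspa13 gave -0.22 (adjusted p = 0.0735). Downward, Hspa1l, a paralog of Hspa1a best known from testis, was at -5.29, -4.72, -4.96, -4.86 and -4.40 in the CO samples 1 to 5 and between -6.41 and -5.51 (median -5.80) in the HFD samples. It was 2.04-fold lower (log2 -1.03 ± 0.18 SE, adjusted p = 3.34e-04), without overlap, next to the decrease of Hspa1a itself. With the normexp correction the calls of Hspa1l (-0.38), Hspa9 (0.16) and Hsph1 (0.15) were lost.

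Small heat shock protein genes were called lower in 6 of 8 and BAG co-chaperone genes in 4 of 6, beside 44.1% of all genes. Of the Hspb genes, the lower 6 included Hspb7, which passed the filter only through the CO arrays, 1 was higher and 1 (Hspb3, log2 difference -0.07) was not called, with a median of -0.48 and with all 8 lower under spike-in scaling. Hspb8 (HSP22), a partner of Bag3, was at -0.20, -0.28, -0.23, -0.34 and -0.35 in the CO samples 1 to 5, and in the HFD samples its median was -0.83 and its highest value -0.71. It was 1.48-fold lower (log2 -0.56 ± 0.06 SE, adjusted p = 1.37e-05), and no HFD sample reached the lowest CO sample. Hspb6 (HSP20) was 1.32-fold lower (log2 -0.40 ± 0.06 SE, adjusted p = 1.29e-04) and Hspb2 was 1.55-fold lower (log2 -0.63 ± 0.10 SE, adjusted p = 2.10e-04), both without overlap. Hspb9 had a log2 difference of -0.87, adjusted p = 0.00104, also without overlap. Hspb7 was well above background on all 5 CO arrays and on no HFD array. Its measured log2 difference was -1.32, adjusted p = 0.0011, and since the mean over the HFD arrays of the lowest signal well above background exceeded its CO mean, no fold is given. With quantile normalization it was not called (-0.50, adjusted p = 0.0943). Hspb11, which despite its symbol encodes a protein of intraflagellar transport, was the exception upward and was 1.34-fold higher (log2 0.42 ± 0.05 SE, adjusted p = 3.99e-05), turning to lower under spike-in scaling (-0.25). The normexp correction ended the calls of Hspb1, Hspb2, Hspb7 and Hspb9 and kept those of Hspb6, Hspb8 and Hspb11. Oligodendrocyte markers were lower in the same samples (7 of 8, and all 8 under spike-in scaling), and their part in this was not tested.

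Of the 6 BAG genes, 4 were lower (Bag1, Bag2, Bag3 and Bag6), 1 (Bag4, 0.17, adjusted p = 0.00657) was higher and Bag5 was not called. Under spike-in scaling all 6 were lower, and with scaling to the median or the normexp correction 3 were lower. Bag1 was near the threshold (-0.17, adjusted p = 0.0442), and its second probe gave -0.03 (adjusted p = 0.667). The second probe of Bag5 was called lower (-0.23, adjusted p = 0.0209). The call of Bag4 was lost with quantile normalization (0.12, adjusted p = 0.0668) and with the normexp correction (0.03, adjusted p = 0.805). Bag6, which guards newly made membrane proteins, was at 3.57, 3.73, 3.54, 3.53 and 3.65 in the CO samples 1 to 5 and between 3.01 and 3.22 (median 3.10) in the HFD samples. It was 1.41-fold lower (log2 -0.50 ± 0.06 SE, adjusted p = 3.54e-05), and all HFD samples lay below the CO samples. Bag2, an inhibitor of the ubiquitin ligase CHIP, had a log2 difference of -0.41, adjusted p = 3.22e-04. Hspbp1, another exchange factor of HSP70, had one of -0.23, adjusted p = 0.0204, with overlap.

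Among the sensors and transcription factors of the UPR, 3 were lower (Ern1, Xbp1 and Ddit3), beside 44.1% of all genes. Another 1 was higher (Atf4), and Atf6 and Eif2ak3 were not called. All 6 were lower under spike-in scaling, as were 83.5% of all genes. Ern1, which encodes the sensor IRE1, was at -4.23, -3.92, -4.01, -4.04 and -3.82 in the CO samples 1 to 5 and between -4.77 and -4.46 (median -4.60) in the HFD samples. It was 1.52-fold lower (log2 -0.60 ± 0.09 SE, adjusted p = 1.18e-04), with every HFD sample below every CO sample. Xbp1, the transcription factor whose mRNA IRE1 splices, was at 3.70, 3.86, 3.63, 3.69 and 4.00 in the CO samples 1 to 5 and between 3.19 and 3.45 (median 3.29) in the HFD samples. Xbp1 was 1.39-fold lower (log2 -0.48 ± 0.08 SE, adjusted p = 2.17e-04), without overlap, so sensor and target of this branch were both lower. Ddit3 (CHOP), the transcription factor of prolonged ER stress, was at -0.02, -0.14, -0.21, -0.30 and -0.32 in the CO samples 1 to 5 and between -0.55 and -0.35 (median -0.47) in the HFD samples. The decrease was small but without overlap, and Ddit3 was 1.19-fold lower (log2 -0.26 ± 0.07 SE, adjusted p = 0.00533). The calls of Ern1 (-0.34) and Ddit3 (-0.14) were lost with the normexp correction, that of Xbp1 was kept, and the call of Ddit3 was also lost with scaling to the median (-0.20).

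Atf4, which is translated when eIF2 is phosphorylated, was at 4.49, 4.40, 4.58, 4.25 and 4.43 in the CO samples 1 to 5 and between 4.44 and 4.73 (median 4.63) in the HFD samples. The groups overlapped, and the gene was 1.14-fold higher (log2 0.19 ± 0.07 SE, adjusted p = 0.045), close to the threshold; it was not called by limma once CO1, CO2, CO4, CO5, HFD1, HFD2, HFD4, HFD5 or HFD6 was left out (adjusted p from 0.0519 to 0.105), and its second probe gave -0.05 (standard error 0.07, adjusted p = 0.575). Its call was lost with quantile normalization (0.17, adjusted p = 0.0739) and with the normexp correction (0.13, adjusted p = 0.482) as well. Atf6 was at -2.26, -2.09, -2.46, -1.77 and -1.65 in the CO samples 1 to 5 and between -1.91 and -1.61 (median -1.75) in the HFD samples. The CO samples spread widely (SD 0.34), and the log2 difference of 0.28 ± 0.13 (SE, adjusted p = 0.0825) did not pass, although it did by limma without CO4 (adjusted p = 0.0430) or without CO5 (adjusted p = 0.0182), with scaling to the median (0.35, adjusted p = 0.0322) and with array weights (0.39, adjusted p = 0.00959). For Eif2ak3, which encodes PERK, the log2 difference of 0.07 ± 0.09 (SE, adjusted p = 0.516) did not pass either, with levels that overlapped.

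The ER lectins calnexin and calreticulin, which hold glycoproteins during folding, went in opposite directions. Canx (calnexin, bound to the membrane) was at 3.72, 3.41, 3.84, 3.75 and 3.17 in the CO samples 1 to 5 and between 4.39 and 4.57 (median 4.50) in the HFD samples. Canx was 1.87-fold higher (log2 0.90 ± 0.11 SE, adjusted p = 3.19e-05), and CO5 and CO2 were its lowest samples. Calr (calreticulin, its soluble relative) was at 3.53, 3.58, 3.43, 3.53 and 3.61 in the CO samples 1 to 5 and between 2.77 and 3.22 (median 3.01) in the HFD samples. Calr was 1.45-fold lower (log2 -0.53 ± 0.08 SE, adjusted p = 1.06e-04), and neither gene overlapped between the groups. Under spike-in scaling Canx was not called (0.23) and Calr was lower. Herpud1, an ER membrane protein of ER-associated degradation and a marker of UPR activity, was at 2.45, 2.43, 2.38, 2.24 and 2.40 in the CO samples 1 to 5 and between 1.87 and 2.18 (median 1.94) in the HFD samples. It was 1.33-fold lower (log2 -0.41 ± 0.07 SE, adjusted p = 2.20e-04), without overlap, and HFD1 was far above the other HFD samples.

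Of 7 ER chaperones measured, 2 were higher (Hsp90b1 and Dnajb9), 1 was lower (Pdia6) and 4 were not called. The shares of all genes were 22.2% higher and 44.1% lower. Under spike-in scaling 1 of the 7 was higher and 6 were lower. Hspa5 (BiP), the HSP70 of the ER and the usual readout of the UPR, was at 4.72, 4.80, 4.72, 4.91 and 4.90 in the CO samples 1 to 5 and between 4.68 and 4.87 (median 4.81) in the HFD samples. The groups overlapped over most of their range, and the log2 difference of -0.01 ± 0.06 (SE, adjusted p = 0.917) did not pass the threshold. Its 95% interval was from -0.14 to 0.12. This interval does not cover spike-in scaling, under which Hspa5 was called lower (log2 difference -0.68, adjusted p = 3.38e-05). Pdia6, a disulfide isomerase, was at 4.36, 4.42, 4.35, 4.43 and 4.61 in the CO samples 1 to 5 and between 4.00 and 4.27 (median 4.11) in the HFD samples. It was 1.23-fold lower (log2 -0.30 ± 0.07 SE, adjusted p = 0.00192), and its second probe gave -0.26. Dnajb9 (ERdj4), a J protein that hands misfolded proteins to degradation, was 1.23-fold higher (log2 0.30 ± 0.10 SE, adjusted p = 0.0232), with overlap, its second probe gave -0.07 (adjusted p = 0.629), the mean over both probes was not called (0.12, adjusted p = 0.292), and its call was lost by limma without CO2 (adjusted p = 0.0620) or without CO5 (adjusted p = 0.0549). No call was made for Pdia3 (0.09, adjusted p = 0.349), the partner of both lectins, for Pdia4 (-0.11, adjusted p = 0.275) or for Dnajc3 (0.07, adjusted p = 0.638), which also restrains PERK. Outside these chaperones, Pdia2, best known from pancreas, was 1.49-fold lower (log2 -0.57 ± 0.09 SE, adjusted p = 2.26e-04), a call lost with the normexp correction (-0.34), and Pdia5 was not called (-0.12, adjusted p = 0.271).

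The ER stress element, the promoter site of ATF6 and XBP1, was searched in its full form, CCAAT and CCACG separated by 9 bases, on both strands. It was found in 6 members (Calr, Canx, Dnajc3, Hsp90b1, Hspa5 and Pdia6), or 8.22% of the 73 matched, and in 0.137% of all genes searched (0.119% of all promoters). Members were chosen by name as genes of these stress responses, so their larger share is a description and not a test. The related element II, ATTGG and CCACG separated by 1 base, was found in Herpud1 alone among the members. It was found in 0.0444% of all genes searched (0.0365% of all promoters). The stretches show the form of the matches in these genes, and binding to them was not measured. Capitals mark the fixed letters, and a match to the opposite strand reads CGTGG before ATTGG.
Hspa5, ER stress element, chr2:34772010-34772058, plus strand: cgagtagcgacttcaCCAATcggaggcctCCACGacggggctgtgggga
Hsp90b1, ER stress element, chr10:86705518-86705671, minus strand: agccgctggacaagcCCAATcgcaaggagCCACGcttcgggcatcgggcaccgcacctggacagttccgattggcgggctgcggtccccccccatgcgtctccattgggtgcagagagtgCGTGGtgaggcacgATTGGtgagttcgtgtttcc
Canx, ER stress element, chr11:50325785-50325833, minus strand: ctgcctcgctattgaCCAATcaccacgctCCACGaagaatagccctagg
Calr, ER stress element, chr8:84847060-84847108, minus strand: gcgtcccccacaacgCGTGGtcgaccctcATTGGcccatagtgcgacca
Pdia6, ER stress element, chr12:17266476-17266524, plus strand: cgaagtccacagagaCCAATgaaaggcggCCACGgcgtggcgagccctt
Dnajc3, ER stress element, chr14:118937812-118937860, plus strand: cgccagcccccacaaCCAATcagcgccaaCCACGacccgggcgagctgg
Herpud1, ER stress element II, chr8:94386362-94386402, plus strand: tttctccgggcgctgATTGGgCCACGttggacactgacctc
Hsp90b1 was the member with 2 matches before its start. Of the 6 genes with the full element, Hsp90b1 and Canx were higher, Calr and Pdia6 were lower and Hspa5 and Dnajc3 were not called, and Herpud1 was lower. Under spike-in scaling Hsp90b1 alone of these 7 was higher, Canx was not called and the others were lower.

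Textbook targets of XBP1 and ATF6, counted with 6 genes outside the members (Hyou1, Sdf2l1, Manf, Creld2, Edem1 and Sel1l), were 3 higher, 9 lower and 5 not called of 17 measured, with a median of -0.14 and with 1 higher and 15 lower under spike-in scaling. The share called lower (52.9%) stood beside 44.1% of all genes.

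J proteins were the largest class, with 42 members. Of these, 13 were higher, 16 were lower and 13 were not called, beside 22.2% of all genes higher and 44.1% lower. By subfamily, 1 of 4 Dnaja, 3 of 10 Dnajb and 9 of 28 Dnajc genes were higher, and 2, 4 and 10 were lower; under spike-in scaling 1 J protein gene (Dnajc2) was higher and 4, 8 and 21 were lower. Dnajc2, the ribosome-bound J protein that receives nascent chains, was at -2.12, -2.59, -1.81, -2.09 and -2.67 in the CO samples 1 to 5 and between -1.19 and -0.87 (median -1.04) in the HFD samples. Dnajc2 was 2.33-fold higher (log2 1.22 ± 0.14 SE, adjusted p = 2.11e-05), without overlap, and it was higher under spike-in scaling too (0.55). Hspa14, its HSP70 partner on the ribosome, moved the other way and was 1.28-fold lower (log2 -0.35 ± 0.06 SE, adjusted p = 3.05e-04). Dnajc21, a factor of ribosome assembly, was at -1.23, -1.66, -0.89, -0.94 and -1.63 in the CO samples 1 to 5 and between -0.35 and -0.12 (median -0.28) in the HFD samples. It was 2.02-fold higher (log2 1.02 ± 0.14 SE, adjusted p = 8.16e-05), its second probe gave 0.94, and the CO samples (SD 0.37) spread more than the HFD samples (SD 0.09). Dnajc22, whose signal was low on all arrays, was 2.00-fold higher (log2 1.00 ± 0.16 SE, adjusted p = 2.61e-04). Neither Dnajc21 (0.35) nor Dnajc22 (0.33) was called under spike-in scaling, and Dnajc22 was not called with the normexp correction (0.35).

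The 3 J proteins of synaptic vesicles and endocytosis were each called higher with their brightest probe, beside 22.2% of all genes, although the other probes of Dnajc5 were called lower, and none was called under spike-in scaling. General neuron markers were higher too (5 of 8, and 1 of 8 under spike-in scaling), and their part in this was not tested. Dnajc13 (RME-8), of endosomal sorting, was at -1.79, -2.23, -1.87, -1.78 and -2.05 in the CO samples 1 to 5 and between -1.40 and -1.08 (median -1.27) in the HFD samples. All HFD samples lay above the CO samples, and Dnajc13 was 1.62-fold higher (log2 0.70 ± 0.10 SE, adjusted p = 7.36e-05). Dnajc6 (auxilin), which strips clathrin from vesicles, was 1.47-fold higher (log2 0.55 ± 0.08 SE, adjusted p = 1.17e-04), also without overlap. Dnajc5, the cysteine string protein of synaptic vesicles, was at 5.53, 5.42, 5.37, 5.41 and 5.70 in the CO samples 1 to 5 and between 5.89 and 6.23 (median 6.17) in the HFD samples with its brightest probe. That probe was 1.57-fold higher (log2 0.65 ± 0.08 SE, adjusted p = 3.18e-05), but the gene's other probes went the other way, as given below. In contrast, Dnajb2 (HSJ1), a J protein of neurons, was at 2.71, 2.73, 2.78, 2.57 and 2.67 in the CO samples 1 to 5 and between 1.92 and 2.35 (median 2.08) in the HFD samples. Dnajb2 was 1.52-fold lower (log2 -0.60 ± 0.08 SE, adjusted p = 6.17e-05), without overlap. Dnajc14, an ER membrane protein, was 1.62-fold lower (log2 -0.70 ± 0.08 SE, adjusted p = 2.69e-05), without overlap, while its second probe gave 0.01 (adjusted p = 0.898). Dnajc5g, a paralog of Dnajc5, was well above background on no HFD array and passed the filter only through the CO arrays. From group means, with each HFD array at the higher of its lowest signal well above background and the probe's own signal, it was at least 1.09-fold lower, but HFD3 and HFD6 lay within the CO range. It had a measured log2 difference of -1.49, adjusted p = 0.0204. Its call was lost with quantile normalization (-0.92, adjusted p = 0.189). Further J proteins called higher included Dnajc27 (0.49, adjusted p = 4.69e-05), Dnajb4 (0.46, adjusted p = 7.67e-04) and Dnajb14 (0.36, adjusted p = 0.00143), each without overlap, and those called lower included Dnaja4 (-0.39, adjusted p = 5.93e-04) and the mitochondrial Dnaja3 (-0.35, adjusted p = 0.00232). Dnajb4 and Dnajc27 were not called under spike-in scaling (-0.21 and -0.18), and Dnajb14 turned to lower (-0.31); with the normexp correction the calls of Dnajc27 (0.35), Dnajb14 (0.21) and Dnajc5g (-0.21) were lost. Dnaja2 had a log2 difference of 0.08 ± 0.07 (SE, adjusted p = 0.28) and was not called.

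Of the 10 members that work in mitochondria, 2 were higher (Hspa9 and Dnajc19) and 5 were lower (Dnaja3, Dnajc4, Dnajc11, Dnajc28 and Dnajc30). The other 3 were not called (Hspd1, Hspe1 and Dnajc15), and the median was -0.07. Dnajc19 was at 0.23 with its brightest probe, and its second probe gave -0.36 (adjusted p = 0.116). The shares of all genes were 22.2% higher and 44.1% lower. All 10 were lower under spike-in scaling, as were 83.5% of all genes.

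Several probes per gene were available for 24 members. In 8 of these the sign differed between probes, and in 1 (Dnajc5) probes were called in opposite directions, against 8.13% of the 4564 genes with several probes. The brightest probe of Dnajc5 gave 0.65 (standard error 0.08), and the others gave -0.69 (standard error 0.07, adjusted p = 4.29e-06) and -0.50 (standard error 0.06, adjusted p = 2.24e-05). Averaged over its probes, Dnajc5 was lower (-0.18, adjusted p = 0.00465). All probes of Hspa4 were higher, but by 0.20, 0.87 and 1.30, so that the size of the increase rested on the probe. Hspa8, not called with its brightest probe, was lower with the other probes, with log2 differences of -1.11 (standard error 0.07) and -0.28 (standard error 0.09). For Dnajb2 the second probe gave -1.62 beside -0.60, and for Dnajc11 it gave -1.28 beside -0.25. Probe positions within the transcripts were not analysed here.

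**Figure D3:**
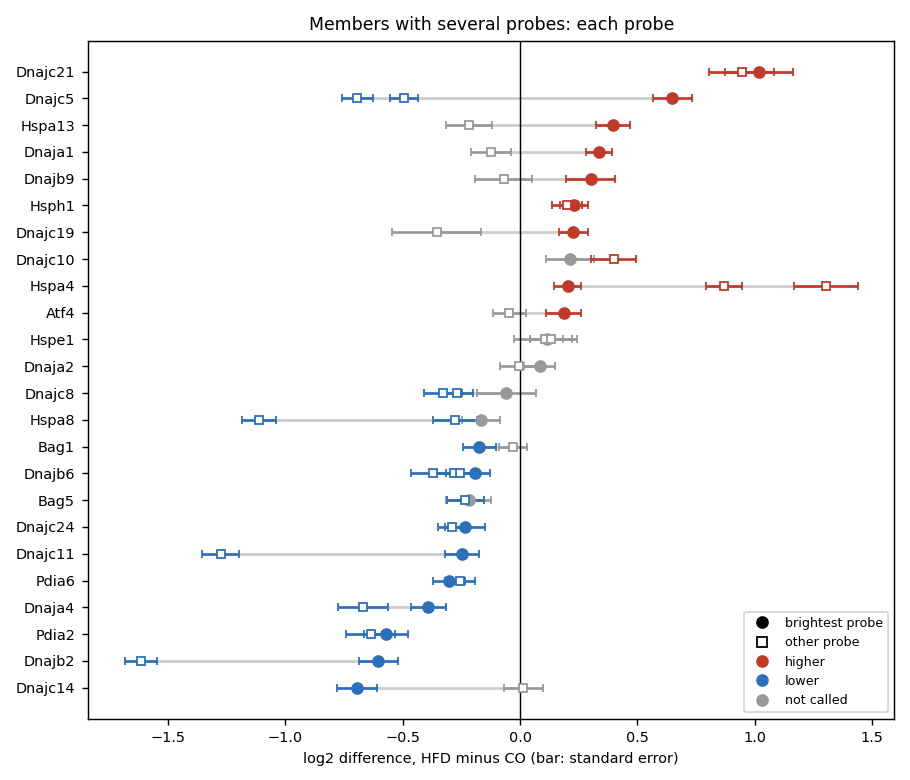
Log2 difference (HFD minus CO, with standard error) of every probe of the 24 members with several probes. Filled circles are the brightest probe, which stands for the gene, and open squares the others; red was called higher, blue lower and grey not called. The probes of Dnajc5 lie on both sides of 0, and those of Hspa4, Hspa8, Dnajb2 and Dnajc11 spread by about 1 log2 unit. With spike-in scaling all points move down by 0.67.

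The members varied more among the CO samples (median SD 0.14) than among the HFD samples (median SD 0.11), as did all genes (0.16 and 0.13). Within the CO group the spread was shared between genes. CO2 and CO5 were the 2 lowest CO samples in 7 of the 8 members with the largest increases and in 14 of the 27 members called higher (51.9%), beside 47.4% of all genes called higher. They were the 2 highest CO samples in 11 of the 38 members called lower (28.9%), beside 34.2% of all genes called lower. Among genes not called they were the 2 lowest in 10.4% and the 2 highest in 25% (20.8% and 25% of members not called). The 8 members were picked by the size of their increase, which low CO values enlarge. No share of equally large increases was counted over all genes. The same samples had the largest shares of spots well above background in the group (85.7% and 85.2%), and the part of this in the results was not tested. Without CO2, 25 members were higher and 37 were lower, and without CO5 these counts were 26 and 34.

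**Figure D4:**
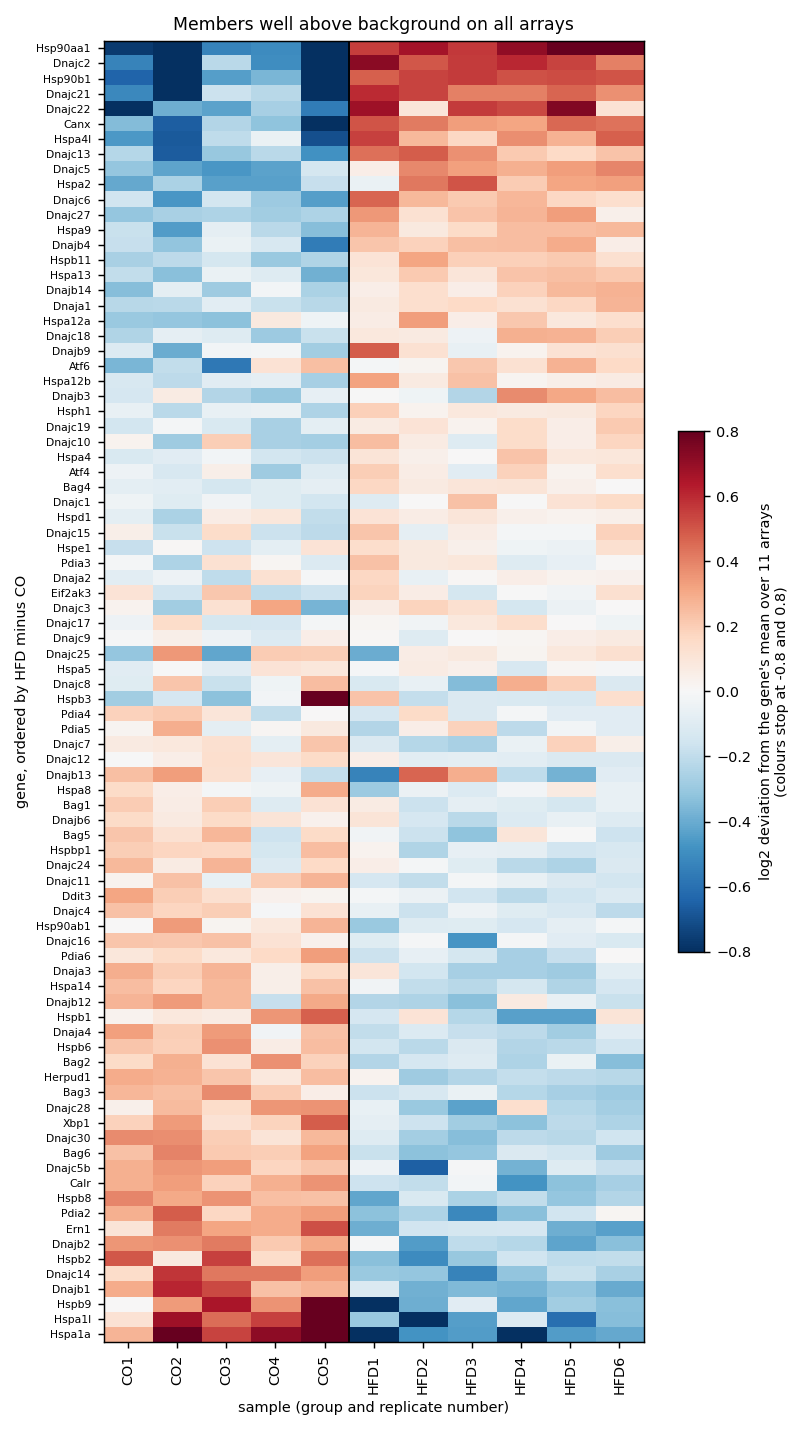
Deviation of each of the 86 members well above background on all arrays from its own mean over the 11 samples (log2, colours stop at -0.8 and 0.8), with genes ordered by the HFD minus CO difference. Columns are the 5 CO and 6 HFD samples. CO2 and CO5 are the darkest CO columns in most of the top genes, from Hsp90aa1 to Dnajc13, while the HFD columns are more alike. Under spike-in scaling the HFD columns would all be lower by 0.67 relative to the CO columns.

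Genes of the same pathways outside the members showed both directions too. Of 123 measured (124 listed), 25 were higher (20.3%), 58 were lower (47.2%) and 40 were not called, with a median of -0.15. These shares lay near those of all genes (22.2% and 44.1%). Under spike-in scaling 5 were higher and 108 were lower, beside 5.57% and 83.5% of all genes. Hsf1, the main heat shock factor, had a log2 difference of -0.09, adjusted p = 0.474, and Hsf2 had one of 0.63, adjusted p = 2.62e-04; no other factor or regulator of the 4 listed was called, and under spike-in scaling none was higher. Of 16 cytosolic co-chaperones, 9 were lower and 3 were higher (none under spike-in scaling). The HSP90 co-chaperones Fkbp4 (-0.66, adjusted p = 1.29e-05) and Cdc37 (-0.52, adjusted p = 4.60e-05) and the small heat shock protein Cryab (-0.60, adjusted p = 2.35e-05) were lower. Of 8 subunits of the chaperonin TRiC, which folds actin and tubulin, 4 were lower and 2 were higher, the smallest adjusted p being those of Cct3 (-0.52, adjusted p = 1.39e-04), Cct8 (0.42, adjusted p = 0.00405) and Cct7 (-0.35, adjusted p = 0.00465). Under spike-in scaling no TRiC subunit was higher. In mitochondrial quality control (5 of 9 lower, 2 higher), Trap1, the mitochondrial HSP90, had a log2 difference of -0.94, adjusted p = 5.71e-07 and the exchange factor Grpel2 one of -0.36, adjusted p = 9.54e-05, whereas the protease Yme1l1 rose by 1.46, adjusted p = 4.45e-05. All 3 kept their call under spike-in scaling, where 1 gene of this list was higher and 8 were lower.

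On the ER side, 10 of 22 folding enzymes and chaperones were lower and 4 were higher, beside 44.1% and 22.2% of all genes. Txndc5 (-0.75, adjusted p = 4.14e-05), of the disulfide isomerase family, and Creld2 (-0.59, adjusted p = 3.33e-05) were lower, and the membrane-bound Tmx3 (1.15, adjusted p = 4.06e-05) was higher. Of 20 genes of ER-associated degradation, 9 were lower and 3 were higher. The ubiquitin ligase Rnf5 (-0.99, adjusted p = 6.11e-07) and the lectin Os9 (-0.49, adjusted p = 1.35e-05) were lower, and Erlec1, the other lectin of this pathway, had the largest difference of the pathway lists (2.27, adjusted p = 3.79e-06). Under spike-in scaling 1 gene was higher in each of these lists. Of 14 further transducers and regulators of the UPR, 8 were lower and 1 was higher, with all 14 lower under spike-in scaling. Traf2 (-0.68, adjusted p = 3.02e-06), which binds IRE1, Atf6b (-0.47, adjusted p = 1.62e-04), a relative of Atf6, and Serp1 (-0.30, adjusted p = 5.21e-04) had the smallest adjusted p.

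Of 8 kinases and regulators of the integrated stress response, which phosphorylate or restore eIF2, 5 were higher and 2 were lower (1 higher and 4 lower under spike-in scaling). Over all genes 22.2% were higher and 44.1% were lower, and under spike-in scaling 5.57% and 83.5%. Eif2ak2 (PKR) had a log2 difference of 1.06, adjusted p = 1.96e-05 and Nck1 one of 0.74, adjusted p = 7.59e-06, while Eif2ak1 (HRI) had one of -0.69, adjusted p = 6.55e-06. Of 22 targets of ATF4 and CHOP, 11 were lower and 4 were higher (20 and 1 under spike-in scaling). Psat1 (-0.49, adjusted p = 1.77e-05), of serine synthesis, Pck2 (-0.52, adjusted p = 1.97e-05), the mitochondrial form of PEP carboxykinase, and Atf3 (-0.53, adjusted p = 3.96e-05) were lower. Of the higher 4, named after their values were seen, Slc7a11, a cystine transporter, had a log2 difference of 1.64, adjusted p = 2.32e-04, the largest of this list, and Vldlr, a lipoprotein receptor, had one of 0.75, adjusted p = 8.54e-05.

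**Figure D5:**
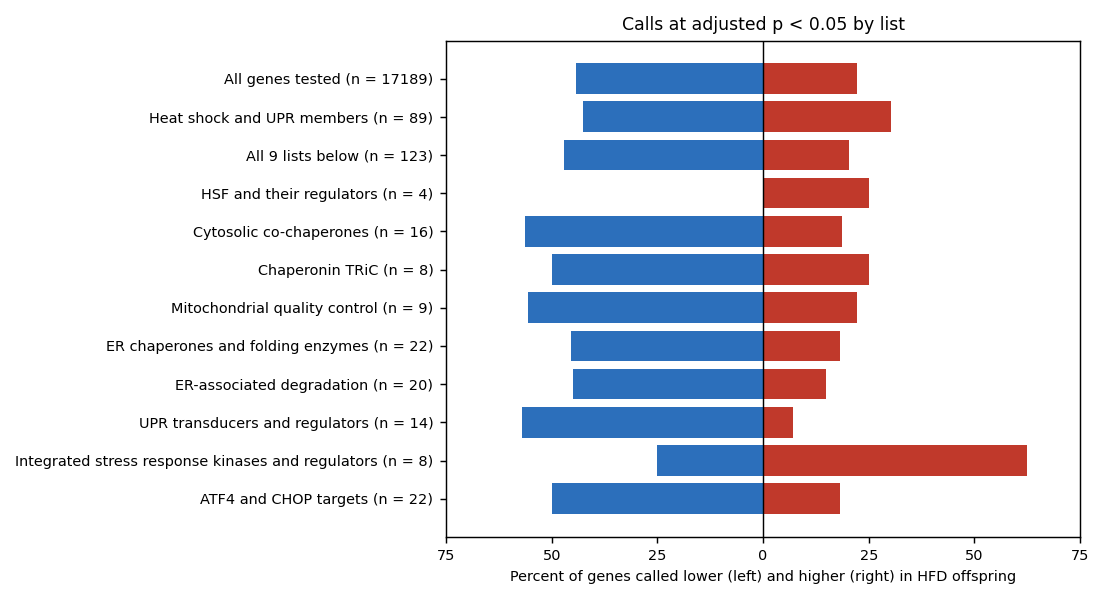
Percent of the genes of each list called lower (left) and higher (right) in HFD offspring at an adjusted p below 0.05, for all genes tested, the members and the lists of pathway genes outside the members. Of the members 42.7% were lower and 30.3% were higher, beside 44.1% and 22.2% of all genes. The list of integrated stress response genes has 5 of 8 higher, but 1 higher and 4 lower under spike-in scaling. Under spike-in scaling 3 members and 5 pathway genes were higher, beside 5.57% of all genes.

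Marker genes of some cell types in the tissue differed between the groups as well, while the mean deviations of other lists overlapped. Of all genes 22.2% were higher and 44.1% were lower. Hypothalamic neurons were represented by 20 markers, all measured, of which 5 were higher and 2 were lower (1 and 13 under spike-in scaling), and 12 striatal markers, which the dissection should leave out, were measured too (8 lower, none higher, and all 12 lower under spike-in scaling). Of 8 oligodendrocyte markers, 7 were lower, and their mean deviation ranged from 0.20 to 0.41 in CO and from -0.34 to -0.15 in HFD samples. Of 8 general neuron markers, 5 were higher (1 higher and 4 lower under spike-in scaling), with a range from -0.35 to -0.15 in CO and from 0.12 to 0.29 in HFD samples. The mean deviations overlapped for hypothalamic neurons (-0.19 to -0.02 in CO, -0.42 to 0.33 in HFD) and striatum (-0.61 to 1.51, -1.21 to 0.18). They also overlapped for astrocytes (1 of 8 higher, 2 lower), microglia (3 of 8 higher, 4 lower), endothelium (3 of 6 higher, 2 lower) and choroid plexus and ependyma (2 of 6 lower). Both red blood cell genes measured were lower, without overlap of their mean deviations. In bulk tissue, fewer cells of a type and less RNA per cell cannot be told apart, and the part of cell composition in the differences of the members was not tested.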

How the data were processed

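Hypothalamic RNA of 5 CO and 6 HFD male offspring at P21 was labelled with Cy3 and hybridized to Agilent 4x44K mouse arrays. Per array, the authors deposited scanner output whose intensity values had been background-subtracted by Feature Extraction (version 10.8 in the submitters' processing notes, 10.7.3.1 in the file headers). How, or whether, the authors normalized between arrays is not stated.

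From these intensities, log2 of the processed signal minus the 75th percentile of each array was computed. Control spots and outliers were dropped, and replicate spots averaged. A probe had to be well above background in 5 or more of 11 samples (31796 kept), and 26369 of 39429 probes were named by unversioned RefSeq accession from the RefSeq genes of GRCm38.p6. Each gene was represented by its brightest probe. Groups were compared by limma 3.58.1 in R 4.3.3 (with the packages statmod 1.5.0 and data.table, version 1.17.8), two-sided, with Benjamini-Hochberg adjustment over 17189 genes and a threshold of 0.05; other probes were taken from a fit over all probes. The number of arrays limits the precision. The steps were tested on simulated data.

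The members, the gene lists and the rule for named genes were chosen with earlier results of these data known. Named were all UPR sensors, factors, lectins, inducible heat shock genes and ER chaperones, the 8 largest changes in each direction, up to 4 members per family and up to 3 genes per other list with the smallest adjusted p, and members with opposite probes. Alternatives were 4 other normalizations or background corrections, 2 other filters, the mean over probes, blocks for slide and replicate number, array weights, each array left out, 1 slide per group, the Rank Product test of the methods, and stricter thresholds. The planned normexp correction on mean signals was replaced, after the files had been seen, by one on median signals with an offset of 50. No array had values identical to another.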

Additional observations from a re-analysis of the deposited data

Results flagged for a closer look

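In the 56 named members, each group of 5 or 6 samples was tested for a single sample far from the others (112 tests, of which chance flags about 1 in 20). The test marked 4 values, all in HFD1. Dnajb1 stood at 3.74 in HFD1, with the next HFD sample at 3.548 and the lowest at 3.453. Dnajb9 stood at 0.8984 in HFD1, with the next sample at 0.5469. Herpud1 stood at 2.183 in HFD1, with the next sample at 1.964. Dnajc5 was low in HFD1, at 5.895, with the next sample at 6.124. Without HFD1, 27 members were called higher and 38 lower, the same counts as with all arrays.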

How the results depend on the processing

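Spike-in scaling kept 41 of the 65 member calls and turned 14. With it, 3 members were higher and 75 lower (median -0.74) and 113 pathway genes outside the members were called, and the differences of 19 named members changed sign: Atf4 -0.48, Atf6 -0.39, Bag4 -0.50, Dnaja1 -0.33, Dnaja2 -0.59, Dnajb14 -0.31, Dnajb4 -0.21, Dnajb9 -0.37, Dnajc27 -0.18, Dnajc3 -0.60, Dnajc5 -0.022, Eif2ak3 -0.60, Hspa2 -0.040, Hspa9 -0.21, Hspb11 -0.25, Hspd1 -0.53, Hspe1 -0.56, Hsph1 -0.44 and Pdia3 -0.58. Dnajc5 also turned, to -0.18, with the mean over probes. With the normexp correction 18 members were higher and 22 lower (38 of 65 calls kept). An adjusted p below 0.001 left 17 higher and 19 lower and 48 pathway genes, and a difference of at least 2-fold left 4, 4 and 5. The Rank Product test called 1 member higher (Hsp90aa1), 0 lower and 2 pathway genes, where limma called 38 members lower. Leaving out each array in turn gave 25 to 29 members higher, 34 to 38 lower, a median from -0.11 to -0.02 and 77 to 84 pathway genes. Quantile normalization, scaling to the median (31 higher, 30 lower), both filters, the mean over probes, slide as a random block, array weights and 1 slide per group (25 higher, 34 lower) kept these counts within 1.5 times. The replicate numbers name samples without pairing them (correlations of same-numbered deviations from -0.10 to 0.18; 2 of 5 CO samples correlated best with their own number). With the replicate number as a block, 25 members were higher, 32 were lower and 75 pathway genes were called, and 57 of the 65 member calls were kept, those of Atf4 and Dnajb9 being lost among the named members. For dim members such as Dnajc5g and Hspb7, signal over background limits the size. The cause of these changes was not tested, other than the fixed shift of the spike-in scaling.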
